A study of Homo sapiens with 8 samples.

Results

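Antisense long noncoding RNAs (lncRNAs) named after a protein-coding or other neighbouring gene were examined in OAW42-R cells, beside the genes whose names they carry. OAW42-R is a cisplatin-resistant line derived by repeated cisplatin exposure from OAW42, a serous ovarian cancer line, and all 8 samples came from this 1 line. The cells received a control siRNA without a target (sictrl, 4 arrays) or a pool of siRNAs against the lncRNA UCA1 that targets both of its isoforms (siUCA1, 4 arrays). The siRNA concentration was 20 nM in both conditions. The labels give 24 h between transfection and RNA extraction and the study's methods give 72 h. RNA was hybridised to 1-color Agilent 8x60k arrays, and the replicates are named A1, M2, A2 and A3 in each condition.

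A lncRNA was taken when the RefSeq symbol of its probe ended in -AS and a number and when either condition had that probe well above background throughout its 4 arrays. A probe is called detected on an array where it was well above background there, and the brightest such probe stood for the gene. Of 1054 such symbols with a probe, 240 met the rule, among 15455 genes that were fitted. The members were thus chosen by their signal on these same arrays, and AQP5-AS1 and RNF157-AS1 were also named beforehand because earlier results of these data had shown them to be lower in siUCA1. Values are log2 intensities minus the 75th percentile of each array, so 0 is the 75th percentile of the array. A gene is called when limma's adjusted p is under 0.05. Arrays measured RNA from whole cultures, so fewer cells with an RNA and less of it per cell cannot be told apart.

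A natural antisense transcript is made from the DNA strand opposite to the gene it is named after, and may overlap the body of that gene, start beside its promoter and run the other way, or lie nearby. Some such RNAs are known to act on the neighbouring gene by recruiting chromatin modifiers, by their own transcription or by pairing with the sense RNA. Others act elsewhere in the cell, and for most no function is established.

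The starts of 3 pairs are printed to show how close an antisense RNA and its sense gene can begin on opposite strands. AQP5-AS1 had the largest log2 difference among the members as processed here, a rank that was lost under alternatives given below. The ATP6V0E2 and VLDLR pairs had both members past the threshold. Each line holds the last bases before the annotated start in lower case and the first transcribed bases in capitals, 5′ to 3′, from RefSeq (GRCh38.p14).
AQP5-AS1, chr12:49962915-49962944, minus strand: caggttggggaaagagggaaCCAATACTCA
AQP5, chr12:49961852-49961881, plus strand: gccccagcagggcccgcgccAGGCCGCCAG
ATP6V0E2-AS1, chr7:149873853-149873882, minus strand: tgcctaggagcccactcgctGATTGGCTGA
ATP6V0E2, chr7:149872944-149872973, plus strand: ggccggccgcttggggtagcACTTGTTGCT
VLDLR-AS1, chr9:2622364-2622393, minus strand: ggcgaggagaaccgagaggcGCCTCCTAGG
VLDLR, chr9:2621767-2621796, plus strand: cggccccctccccgctgctcACCCCGCTCT
The starts lay 1052 bases apart for AQP5, 898 for ATP6V0E2 and 586 for VLDLR, and in each case the antisense start was inside the sense gene, so that the 5′ ends of the genes overlapped. The files hold no probe sequences, and which exon a probe reads was not checked.

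UCA1, the target of the siRNAs, was between 7.48 and 8.60 on the sictrl arrays and between 2.59 and 3.68 on the siUCA1 arrays, so that it fell by 5.04 ± 0.29 on the log2 scale (SE, n = 4 and 4, limma adjusted p = 0.000122). Between 20858 and 24039 spots of an array were well above background, with the fewest on siUCA1 A2, where 211 of the 240 antisense lncRNAs were above background against 231 to 240 on the other arrays. On 2 arrays the antisense lncRNAs lay further from the median of their condition, with a median absolute deviation of 0.212 on sictrl A3 and 0.184 on siUCA1 A1 against 0.0807 to 0.121 on the others. Of the 8 epithelial markers, EPCAM, KRT7, KRT8, KRT18, KRT19 and PAX8 were above background on all 8 arrays, whereas WT1 and MUC16 were on none. Of the markers of leukocytes, endothelium and fibroblasts, CD79A and VWF were above background on all 8 arrays, COL1A1 on 5, PTPRC on 2, PECAM1 on 1, and CD3E, CDH5, COL3A1, DCN and LUM on none.

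AQP5-AS1 and RNF157-AS1 showed the 2 largest differences among the 240 antisense lncRNAs as processed here, both lower in siUCA1. As both were chosen for this, their values are a description and no test is given. AQP5-AS1 is named after AQP5, a water channel of secretory epithelia. On the sictrl arrays A1, M2, A2 and A3, AQP5-AS1 was at -1.11, -1.02, -1.21 and -0.15. On the siUCA1 arrays in the same order it was at -2.86, -4.27, -4.44 and -2.80. All siUCA1 values lay below all sictrl values, and the mean was lower by 2.72 on the log2 scale, or 6.58-fold. Only 2 of the 4 siUCA1 arrays had the probe well above background, and when values under the detection limit of an array were raised to that limit the log2 difference was -1.81. That of RNF157-AS1 was then larger, at -2.36. Under normexp background correction AQP5-AS1 was at -0.84, beside -1.66 for RNF157-AS1 and -1.03 for GNAS-AS1, and so was no longer among the 2 largest. AQP5 itself did not enter the fit, since its probe exceeded background clearly on just 3 sictrl and 2 siUCA1 arrays. Its values were -2.23, -1.98, -2.89 and -2.29 on the sictrl arrays and -2.71, -2.47, -2.49 and -2.09 on the siUCA1 arrays, so that the 2 conditions overlapped.

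RNF157-AS1 is named after RNF157, an E3 ubiquitin ligase, and overlaps it over 12175 bases in RefSeq. RNF157-AS1 was at 1.73, 2.28, 2.19 and 1.41 on the sictrl arrays and at -1.01, -0.33, -0.38 and -0.13 on the siUCA1 arrays. Every siUCA1 value lay below every sictrl value, and the mean was lower by 2.36 on the log2 scale, or 5.15-fold. A second probe of RNF157-AS1, dimmer and not used here, was detected on 3 of 4 sictrl arrays and on none of the siUCA1 arrays. RNF157 was at 0.86, 1.07, 0.94 and 1.06 on the sictrl arrays and at 0.65, 0.06, 0.04 and 0.20 on the siUCA1 arrays. RNF157 thus fell as well, by 0.74 ± 0.15 on the log2 scale (SE, n = 4 and 4, limma adjusted p = 0.0151), without overlap between the conditions. This call was lost when sictrl M2 or siUCA1 A2 was left out. A second RNF157 probe was not above background on any array. Whether the change of RNF157-AS1 differed from that of RNF157 was not tested.

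**Figure D1:**
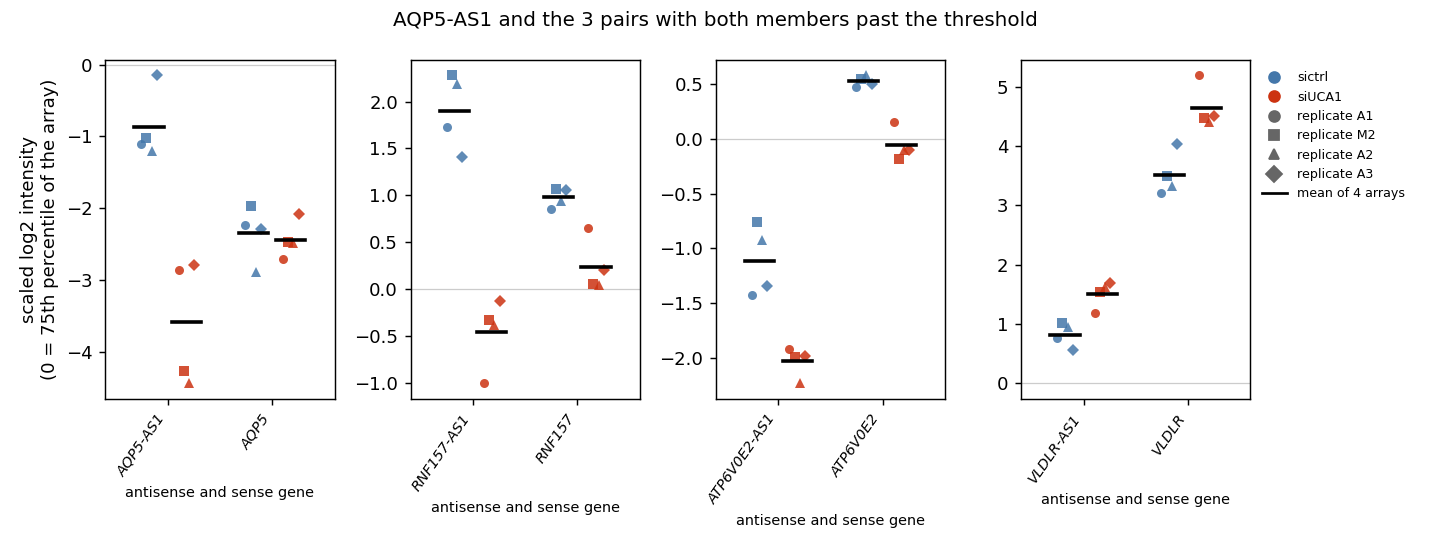
Scaled log2 intensity (0 is the 75th percentile of the array) of AQP5-AS1, RNF157-AS1, ATP6V0E2-AS1 and VLDLR-AS1, each beside its sense gene, on the 4 sictrl arrays (blue) and the 4 siUCA1 arrays (red), with marker shapes for the replicate names and black lines for the means. The conditions do not overlap for any of the 7 genes in the fit, all of them called, which is no separate result. The AQP5 values overlap, and each panel has its own axis.

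Among all 15455 genes, 1788 were called, or 11.6%, with 5.72% higher and 5.85% lower in siUCA1. Of the 240 antisense lncRNAs 33 were called, or 13.8%, with 9 higher (3.75%) and 24 lower (10%). Detection in a single condition helped to choose some of these, so the 196 that were above background on all 8 arrays were also counted on their own. Of these, 27 were called (13.8%), with 9 higher (4.59%) and 18 lower (9.18%). Among the 14133 genes of any kind above background on all 8 arrays 11.5% were called, 5.96% higher and 5.59% lower. The median log2 difference was -0.02 over the 196 antisense lncRNAs and 0.04 over the 14133 genes, and 96 of the 196 lay above 0 and 100 below. The share called was near that of all genes, and these counts describe the lncRNAs that were chosen and were not tested as a set. The split depended on the scaling, with 9 of 33 calls higher as reported and 1 of 16 higher when arrays were scaled to their median, where 3.46% of all genes were called and 21.3% of those calls were higher. It moved the other way with the replicate name as a block, where 14 of 34 were higher, beside 51.2% of the calls among all genes. Without sictrl A3, 13 of 36 were higher, beside 58.3%. With sictrl A3 and siUCA1 A1 both left out, 57 of the 240 were called, 22 higher and 35 lower, beside 25.6% of all genes. Leaving out 1 array lowered the count to 17 without siUCA1 M2, 18 without sictrl A2, 19 without sictrl M2 and 21 without siUCA1 A2, where 4.94% to 5.77% of all genes were called.

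**Figure D2:**
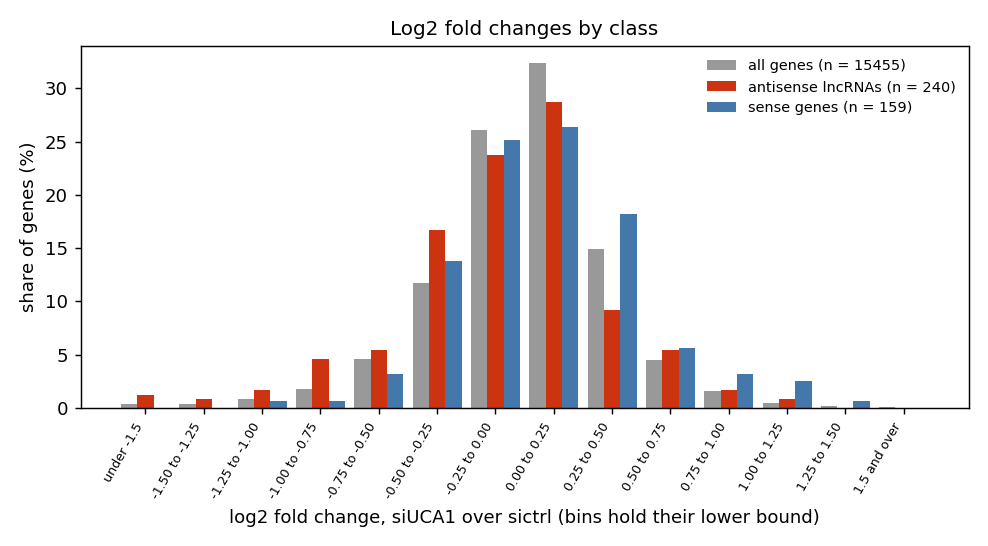
Share of genes (%) in bins of log2 fold change, siUCA1 over sictrl, for all 15455 genes (grey), the 240 antisense lncRNAs (red) and the 159 sense genes in the fit (blue). The antisense lncRNAs have 11 members at a change of 1 or more in either direction, 9 of them lower. Some of these met the detection rule through 1 condition alone, which fixes their direction. Among all genes 359 were at such a change, with 126, 60 and 54 in the bins from -1 down and 69, 32 and 18 in those from 1 up. The sense genes reach from -1.15 to 1.30.

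Beyond AQP5-AS1 and RNF157-AS1, the largest fall of an lncRNA measured on every array was that of GNAS-AS1, an antisense transcript of the imprinted GNAS locus, which encodes the stimulatory G protein alpha subunit. GNAS-AS1 was at 0.57, 0.78, 0.78 and 0.57 on the sictrl arrays and at -0.39, -1.01, -1.03 and -1.02 on the siUCA1 arrays. It fell by 1.54 ± 0.16 on the log2 scale (SE, n = 4 and 4, limma adjusted p = 0.00166), with siUCA1 A1 above the other siUCA1 arrays and no overlap. GNAS was between 9.18 and 9.52 in sictrl and between 9.48 and 9.62 in siUCA1, a log2 difference of 0.25 ± 0.10 that did not pass (adjusted p = 0.138). Without sictrl A3 it was 0.33 and passed (limma adjusted p = 0.0381).

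SERTAD4-AS1 lies head to head with SERTAD4, a SERTA domain gene whose probe was not above background on any array. SERTAD4-AS1 was at -0.08, 0.20, -0.15 and -0.14 in sictrl and at -1.15, -1.30, -1.76 and -1.51 in siUCA1. It fell by 1.39 ± 0.15 (SE, n = 4 and 4, limma adjusted p = 0.00199) on the log2 scale. TRAM2-AS1 starts 141 bases away from TRAM2, which encodes a membrane protein of the endoplasmic reticulum translocon. TRAM2-AS1 was at 1.03, 1.18, 1.03 and 1.34 in sictrl and at -0.10, -0.01, 0.16 and -0.18 in siUCA1. The 2 conditions were far apart, and TRAM2-AS1 fell by 1.18 ± 0.11 on the log2 scale (SE, n = 4 and 4, limma adjusted p = 0.00144). TRAM2 differed by 0.13 ± 0.10 on the log2 scale (adjusted p = 0.476), with overlapping conditions.

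FOXP4-AS1 shares its 5′ region with FOXP4, a forkhead transcription factor gene. Its values were 0.39, 0.01, 0.34 and 0.27 in sictrl and -0.38, -1.16, -0.77 and -1.40 in siUCA1. It fell by 1.18 ± 0.21 on the log2 scale (SE, n = 4 and 4, limma adjusted p = 0.0111). FOXP4-AS1 had 3 probes that met the detection rule, and a second, detected on all 8 arrays, had a log2 difference of -1.26. The third was detected on 2 of 4 siUCA1 arrays and so met the rule through sictrl alone. FOXP4 differed by 0.27 ± 0.29 on the log2 scale (adjusted p = 0.589).

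ZNF674-AS1, which starts 68 bases from the zinc finger gene ZNF674, passed the threshold with overlapping conditions. It was at 0.61, 0.47, 0.68 and -1.06 in sictrl and at -1.40, -0.77, -1.39 and -1.26 in siUCA1, so that sictrl A3 lay among the siUCA1 arrays. Its log2 fold change was -1.38 ± 0.37 (SE, n = 4 and 4, limma adjusted p = 0.0461). The call was lost when any array other than sictrl A3 was left out, and without sictrl A3 the change was -1.80. It was also lost under median scaling (limma adjusted p = 0.0613), with the percentile taken over probes detected on all 8 arrays (0.0539) and under normexp, where the change was -0.74 (0.227). ZNF674 was not above background on any array. GNAS-AS1, SERTAD4-AS1, FOXP4-AS1 and TRAM2-AS1 were called with each of the 8 arrays left out, under median scaling and under normexp background correction. Under normexp their log2 differences were smaller, at -1.03, -0.73, -0.67 and -0.79 in that order.

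NDUFV2-AS1 and ATP6V0E2-AS1 were among the lncRNAs that met the rule through sictrl alone, each being detected on 3 of 4 siUCA1 arrays, so their differences are given without a p. NDUFV2-AS1 overlaps the 3′ end of NDUFV2, a subunit gene of mitochondrial complex I, over 13077 bases. It was at -1.45, -0.83, -0.96 and -1.13 in sictrl and at -1.90, -2.36, -2.19 and -1.92 in siUCA1, a mean log2 difference of -0.996. NDUFV2 was between 6.51 and 6.59 in sictrl and between 6.60 and 6.74 in siUCA1, and its log2 difference of 0.13 ± 0.08 did not pass (adjusted p = 0.331). ATP6V0E2-AS1 was at -1.43, -0.76, -0.93 and -1.35 in sictrl and at -1.92, -1.99, -2.24 and -1.98 in siUCA1, a mean log2 difference of -0.92 without overlap. ATP6V0E2 encodes a membrane subunit of the proton-pumping vacuolar ATPase. It was at 0.48, 0.55, 0.58 and 0.50 in sictrl and at 0.16, -0.18, -0.10 and -0.10 in siUCA1. It fell by 0.58 ± 0.10 on the log2 scale (SE, n = 4 and 4, limma adjusted p = 0.00902), with siUCA1 A1 the nearest to sictrl.

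The remaining calls in this direction had log2 fold changes between -0.89 and -0.38. SOCS2-AS1, named after a suppressor of cytokine signalling, fell by 0.89 on the log2 scale (limma adjusted p = 0.00737), and SOCS2 differed by -0.09 (adjusted p = 0.827). DDX11-AS1, also known as CONCR and needed for sister chromatid cohesion, fell by 0.77 (limma adjusted p = 0.00626), and the helicase gene DDX11, 12 bases away, differed by -0.03. HIF1A-AS1 fell by 0.57 (limma adjusted p = 0.0287), and HIF1A, the oxygen-regulated transcription factor gene, differed by -0.06. WWC2-AS2 fell by 0.61 with an adjusted p of 0.0498 (limma), next to a log2 difference of -0.94 for WWC2 that did not pass (adjusted p = 0.0676). The others were ZBED3-AS1, GABPB1-AS1, WDFY3-AS2, H1-10-AS1, TMEM44-AS1, CARD8-AS1, ERCC6L2-AS1, C10orf95-AS1, JMJD1C-AS1, VASH1-AS1 and WAC-AS1. SOCS2-AS1, HIF1A-AS1 and ERCC6L2-AS1 each had a dimmer second probe detected on every array, with log2 differences of -0.39, -0.27 and -0.26. None of these probes passed (limma adjusted p = 0.110, 0.387 and 0.336 over probes). Second probes of C10orf95-AS1, TMEM44-AS1 and H1-10-AS1 were lower too, but met the detection rule through sictrl alone. All 15 lncRNAs of this group were chosen for mention after their values were seen, and SOCS2-AS1, DDX11-AS1, TMEM44-AS1 and ZBED3-AS1 were the 4 that were also called with each array left out in turn. Under median scaling 7 of the 15 were called, these 4 among them, and under normexp all 15 calls were lost. ZBED3-AS1, GABPB1-AS1 and H1-10-AS1 met the detection rule through sictrl alone, which fixes the direction of their calls. HIF1A-AS1 was not called without sictrl M2, sictrl A2, siUCA1 M2 or siUCA1 A2, and WWC2-AS2 was called only without siUCA1 A2.

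**Figure D3:**
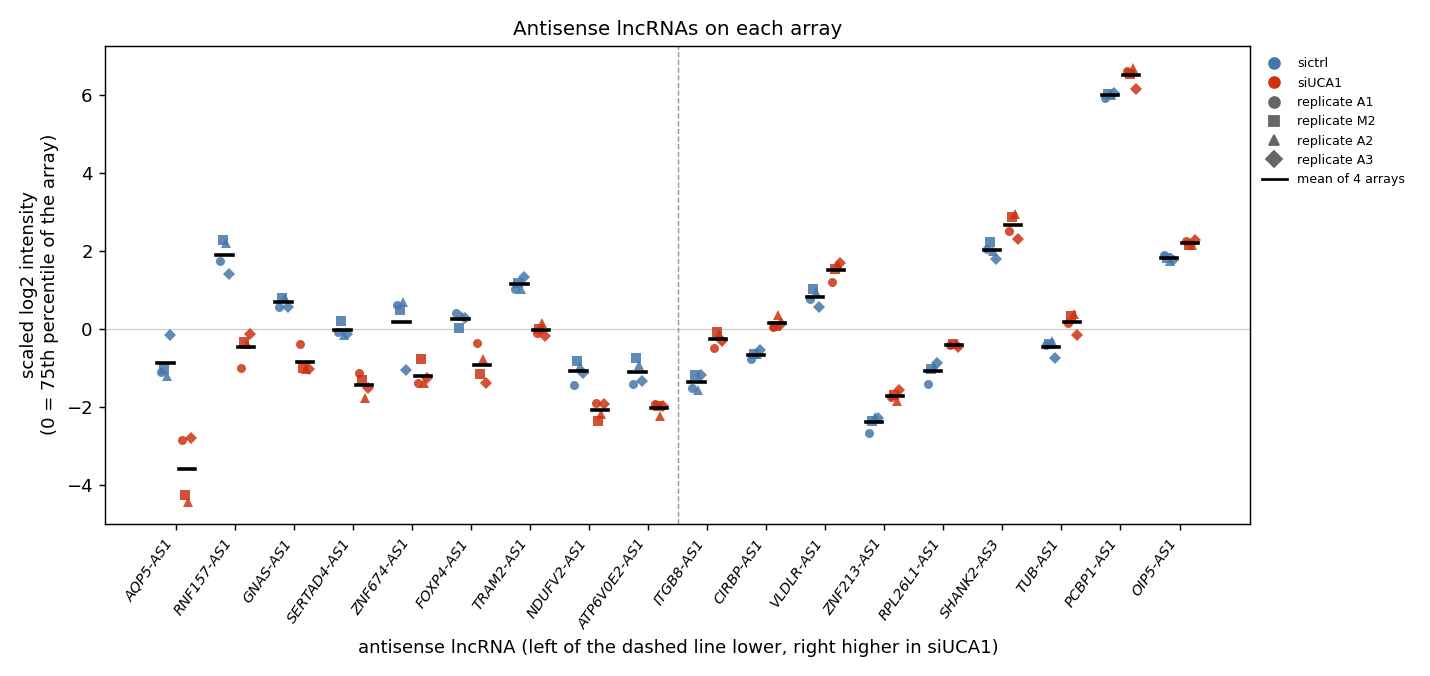
Scaled log2 intensity (0 is the 75th percentile of the array) of 18 antisense lncRNAs on the 4 sictrl arrays (blue) and the 4 siUCA1 arrays (red), with marker shapes for the replicate names and black lines for the means. The 9 to the left of the dashed line are lower and the 9 to the right higher in siUCA1. All 18 were called, so the separation of their conditions is no separate result, and the conditions overlap only for ZNF674-AS1.

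In the other direction 9 antisense lncRNAs rose, all measured on all 8 arrays. ITGB8-AS1 was the only one of them that was also called under median scaling or under normexp background correction, which gave it a log2 difference of 0.59. ITGB8-AS1, named after the integrin beta-8 gene, was at -1.51, -1.19, -1.56 and -1.18 in sictrl and at -0.50, -0.08, -0.13 and -0.30 in siUCA1. It rose by 1.10 ± 0.14 on the log2 scale, or 2.15-fold (SE, n = 4 and 4, limma adjusted p = 0.00316), without overlap. ITGB8 was at 0.28, 0.90, 0.59 and -0.36 in sictrl and at -0.21, 1.53, 1.66 and 1.62 in siUCA1. Its log2 difference of 0.79 ± 0.44 did not pass (adjusted p = 0.286), with siUCA1 A1 far below the other siUCA1 arrays, and without that array ITGB8 was higher by 1.25 and passed (limma adjusted p = 0.0215).

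CIRBP-AS1, named after the cold-inducible RNA-binding protein gene, was at -0.79, -0.66, -0.64 and -0.55 in sictrl and at 0.04, 0.08, 0.35 and 0.13 in siUCA1. It rose by 0.81 ± 0.10 on the log2 scale (SE, n = 4 and 4, limma adjusted p = 0.00339). CIRBP differed by 0.34 ± 0.18 on the log2 scale (adjusted p = 0.261), with overlapping conditions, and without sictrl A3 it was higher by 0.52 and passed (limma adjusted p = 0.0237).

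VLDLR-AS1 was at 0.76, 1.02, 0.94 and 0.57 in sictrl and at 1.19, 1.54, 1.63 and 1.68 in siUCA1, and rose by 0.69 ± 0.15 on the log2 scale (SE, n = 4 and 4, limma adjusted p = 0.0194). This call was lost when sictrl A1, siUCA1 M2, siUCA1 A2 or siUCA1 A3 was left out. VLDLR encodes the very low density lipoprotein receptor, which takes up triglyceride-rich lipoproteins and binds reelin. It was at 3.21, 3.49, 3.32 and 4.04 in sictrl and at 5.19, 4.47, 4.40 and 4.50 in siUCA1. VLDLR rose by 1.12 ± 0.23 on the log2 scale, or 2.18-fold (SE, n = 4 and 4, limma adjusted p = 0.0169), with sictrl A3 the highest control array and siUCA1 A1 the highest siUCA1 array. That call was lost without sictrl M2 or without sictrl A2, and a second VLDLR probe differed by 1.05 on the log2 scale.

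OIP5-AS1, the vertebrate lncRNA also called cyrano, is known to bind the RNA-binding protein HuR and to direct the decay of miR-7. It was at 1.90, 1.82, 1.74 and 1.76 in sictrl and at 2.25, 2.14, 2.14 and 2.27 in siUCA1, and rose by 0.40 ± 0.09 on the log2 scale (SE, n = 4 and 4, limma adjusted p = 0.0224). Its second probe rose by 0.93 (limma adjusted p = 0.00768 over probes), so both probes moved in the same direction. The call from the first probe was lost when sictrl M2, sictrl A2, siUCA1 M2, siUCA1 A2 or siUCA1 A3 was left out. OIP5, a centromere protein gene that the lncRNA overlaps at its 3′ end over 4066 bases, differed by -0.25 on the log2 scale (adjusted p = 0.423).

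RPL26L1-AS1 lies within RPL26L1, a ribosomal protein L26-like gene, and rose by 0.66 ± 0.12 on the log2 scale (SE, n = 4 and 4, limma adjusted p = 0.0129). A second probe of RPL26L1-AS1 was detected on every siUCA1 array and on no sictrl array, which fixes its direction, and read at least 2.35-fold higher in siUCA1. RPL26L1 differed by -0.01 ± 0.15 on the log2 scale. ZNF213-AS1 rose by 0.69 ± 0.12 on the log2 scale (SE, n = 4 and 4, limma adjusted p = 0.00986), next to a difference of -0.02 ± 0.20 for the zinc finger gene ZNF213.

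SHANK2-AS3 rose by 0.64 ± 0.16 on the log2 scale (SE, n = 4 and 4, limma adjusted p = 0.0382), and SHANK2, which encodes a scaffold of the postsynaptic density, was the sense gene furthest in the opposite direction among these, at -0.49 ± 0.14 (adjusted p = 0.0565). The SHANK2 values did not overlap, being between -0.59 and -0.17 in sictrl and between -1.12 and -0.63 in siUCA1. PCBP1-AS1 shares its 5′ region with the poly(rC)-binding protein gene PCBP1 and rose by 0.51 ± 0.13 on the log2 scale (SE, n = 4 and 4, limma adjusted p = 0.037), whereas PCBP1 differed by -0.16 ± 0.10. TUB-AS1 rose by 0.63 ± 0.15 on the log2 scale (SE, n = 4 and 4, limma adjusted p = 0.0298), and RefSeq lists it on the same strand as TUB, whose probe was not above background on any array. The calls of SHANK2-AS3, TUB-AS1 and PCBP1-AS1 were each lost when sictrl A1, sictrl M2, sictrl A2, siUCA1 M2 or siUCA1 A2 was left out, that of SHANK2-AS3 also without sictrl A3 and that of PCBP1-AS1 also without siUCA1 A1. With the replicate name as a block PCBP1-AS1 was not called (limma adjusted p = 0.0662) and SHANK2 was (0.0425).

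A sense gene in the fit was found for 160 of the 240 antisense lncRNAs, which gave 159 genes since ZBTB20 has both ZBTB20-AS1 and ZBTB20-AS4. For 69 the sense gene had a probe that did not meet the detection rule, for 4 it had no probe and for 7 RefSeq held no gene of that name, among them the HOX cluster antisense RNAs. Both members passed the threshold in 3 of the 160 pairs, those of RNF157 and ATP6V0E2 with both lower and that of VLDLR with both higher. RNF157-AS1 was chosen for its fall and ATP6V0E2-AS1 met the detection rule through sictrl alone, so only the VLDLR pair passed without such a choice. Under median scaling ATP6V0E2 and VLDLR-AS1 were no longer called, and under normexp RNF157, ATP6V0E2, ATP6V0E2-AS1 and VLDLR-AS1 were not. The antisense lncRNA alone was called in 25 pairs and the sense gene alone in 21. Of the 28 sense genes whose antisense lncRNA was called, 3 were called, and of the other 131 sense genes 20 were, beside 11.6% of all genes. The 2 changes had the same sign in 81 pairs, 42 with both lower and 39 with both higher, while in 52 pairs only the antisense lncRNA was lower and in 27 only the sense gene. Across the pairs Pearson's r between the 2 log2 fold changes was 0.13 and Spearman's rho 0.10, a description over genes measured on the same arrays.

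**Figure D4:**
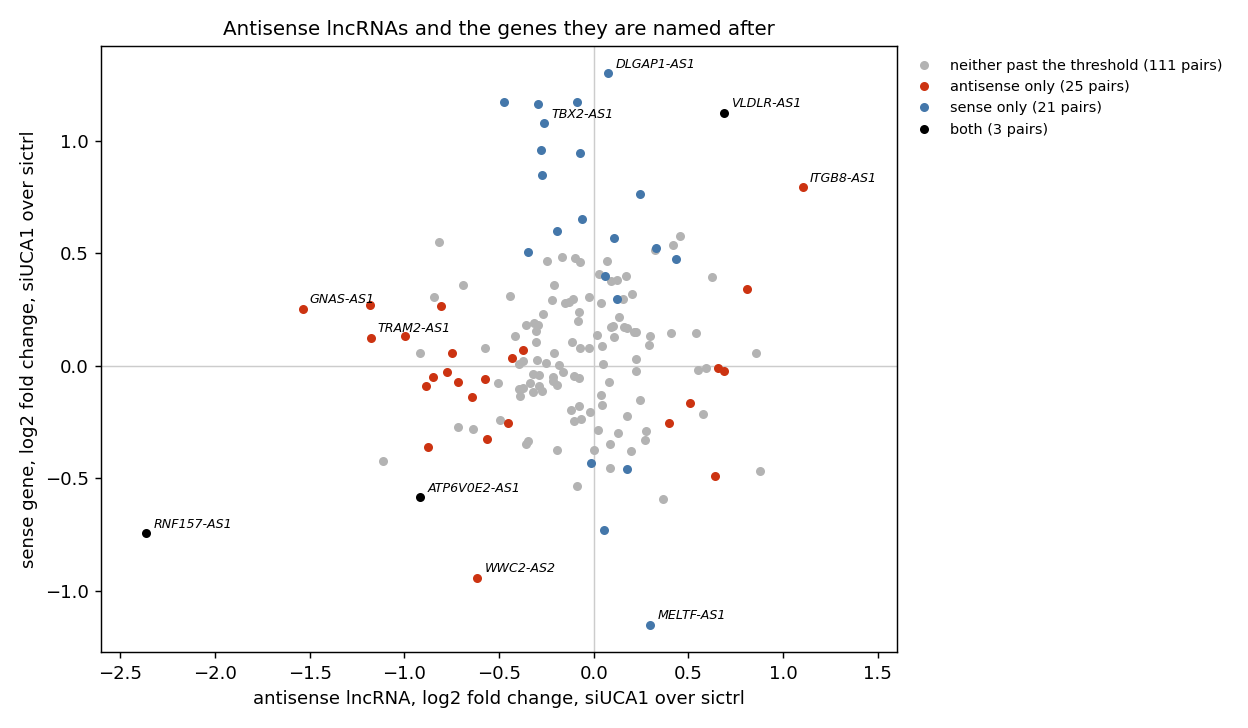
Log2 fold change, siUCA1 over sictrl, of the antisense lncRNA (x axis) and of its sense gene (y axis) in 160 pairs, 1 point a pair, coloured by which member passed limma's adjusted p threshold of 0.05. Only RNF157-AS1, ATP6V0E2-AS1 and VLDLR-AS1 have both members past it, and most antisense lncRNAs called (red) lie close to 0 on the y axis.

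Of the 159 sense genes 23 were called (14.5%), 17 higher and 6 lower, beside 11.6% of all genes, 5.72% higher and 5.85% lower. The median log2 difference was 0.06 against 0.03 for all genes. Of the 155 sense genes above background on all 8 arrays, 22 were called (14.2%), 17 higher and 5 lower, beside 11.5%. Without siUCA1 A1, 15 of 31 calls were higher, beside 44.2% of the calls among all genes. Under median scaling 5 of 8 were higher, beside 21.3%, and with sictrl A3 and siUCA1 A1 both left out 33 of 52 were higher, beside 53.8%. The count of 23 was 9 without sictrl M2, where 5.58% of all genes were called, and 11 without siUCA1 A2 (5.38%). It was 13 without sictrl A2 (4.94%) or siUCA1 M2 (5.77%), and 15 without siUCA1 A3 (7.10%).

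The largest rise of a sense gene was that of DLGAP1, a postsynaptic scaffold gene, which was at -1.95, -2.38, -1.92 and -1.95 in sictrl and at -0.54, -0.67, -0.93 and -0.87 in siUCA1. DLGAP1 rose by 1.30 ± 0.14 on the log2 scale (SE, n = 4 and 4, limma adjusted p = 0.00192), while DLGAP1-AS1, which lies within it, differed by 0.08 ± 0.21 (adjusted p = 0.857). Under normexp DLGAP1 was at 0.53 and was not called (limma adjusted p = 0.0716). ZBTB20, a zinc finger transcription repressor gene, was between 1.63 and 2.54 in sictrl and between 3.11 and 3.67 in siUCA1. ZBTB20 rose by 1.17 ± 0.21 (SE, n = 4 and 4, limma adjusted p = 0.0103), whereas ZBTB20-AS1 differed by -0.47 ± 0.30 and ZBTB20-AS4 by -0.09 ± 0.26 on the same scale, neither passing. The ZBTB20 call was lost under normexp (limma adjusted p = 0.0845).

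TBX2, a T-box transcription repressor gene, was between 2.92 and 3.19 in sictrl and between 3.90 and 4.55 in siUCA1, with siUCA1 A1 the highest. TBX2 rose by 1.08 ± 0.15 on the log2 scale (SE, n = 4 and 4, limma adjusted p = 0.00461), and TBX2-AS1 differed by -0.26 ± 0.13 (adjusted p = 0.23). SVIL encodes supervillin, which links actin to the membrane, and rose by 1.16 ± 0.30 (SE, n = 4 and 4, limma adjusted p = 0.0401), beside -0.29 ± 0.11 for SVIL-AS1 (adjusted p = 0.115). The SVIL call was lost whenever an array other than sictrl A3 was left out, and without sictrl A3 the log2 difference was 1.42. Under normexp it was 0.47 and was not called.

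MELTF, which encodes the iron-binding surface protein melanotransferrin, was between -2.48 and -2.08 in sictrl and between -3.79 and -3.03 in siUCA1, where 1 of 4 arrays detected it. It met the detection rule through sictrl alone, so its log2 difference of -1.15 is given without a p, and it was -0.46 with dim values raised to the detection limit and -0.20 under normexp. MELTF-AS1 differed by 0.30 ± 0.22 on the log2 scale. PRRT3, a proline-rich transmembrane protein gene, fell by 0.73 ± 0.14 (SE, n = 4 and 4, limma adjusted p = 0.0127), and PRRT3-AS1, whose 5′ end overlaps it, differed by 0.05 ± 0.19. The PRRT3 call was lost under normexp (limma adjusted p = 0.105). EPB41L4A, a band 4.1-like gene, fell by 0.46 ± 0.09 (SE, n = 4 and 4, limma adjusted p = 0.0169), a call that was lost without sictrl M2, sictrl A2, siUCA1 M2 or siUCA1 A2, under median scaling and under normexp, and EPB41L4A-AS1 differed by 0.18 ± 0.22. The remaining sense genes called were KTN1, lower, and KANSL1, DLG5, USP3, IDH1, ZBTB11, NDUFB2, RBPMS, NHSL1, ICA1, PITPNA, TCERG1L and DNAJC27, higher, with log2 fold changes up to 0.96. These 13 were chosen for mention after their values were seen, and IDH1, NHSL1 and ZBTB11 were the 3 called with each array left out in turn. Under median scaling all 13 calls were lost, and under normexp all but those of ICA1 and PITPNA.

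A list of antisense lncRNAs studied in other cells, which does not hold every studied one, had 13 members here. FOXP4-AS1 (lower) and OIP5-AS1 (higher) were the 2 of these 13 that were called (15.4%), a share near the 11.6% of all genes. MCM3AP-AS1 had the largest log2 difference among the other 11, at -0.92 with overlapping conditions, and is given without a p because it met the detection rule through sictrl alone, with 2 of 4 siUCA1 arrays detecting it. MAPKAPK5-AS1 differed by -0.21 ± 0.09, MNX1-AS1 by -0.30 ± 0.11 and VPS9D1-AS1 by -0.30 ± 0.12 on the log2 scale. TMPO-AS1, SBF2-AS1, GAS6-AS1 and TTN-AS1 lay between -0.27 and 0.24. Those of the HOX clusters, which hold the homeobox genes of body patterning, did not pass either. HOXA-AS2 differed by -0.22 ± 0.30, HOXC-AS1 by -0.27 ± 0.22 and HOXC-AS3, detected on 3 of 4 siUCA1 arrays, by -0.10 ± 0.38 on the log2 scale, and their conditions overlapped. HOXB-AS1, which is not on the list and was chosen for mention after its value was seen, differed by 0.37 ± 0.11. It was the furthest of the HOX antisense RNAs in the other direction and did not pass (adjusted p = 0.0688).

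The members were also grouped by how RefSeq places them against the sense gene. Both genes began within each other, so that their 5′ ends overlapped, in 53 cases, of which 11 were called, among them AQP5-AS1, SERTAD4-AS1, FOXP4-AS1 and VLDLR-AS1. In 29 cases the genes were apart with their starts facing away from each other, and the 5 called here, TRAM2-AS1, ZNF674-AS1, DDX11-AS1, WAC-AS1 and WWC2-AS2, were all lower. The 3′ ends overlapped in 39 cases with 4 called. The antisense gene lay wholly within the sense gene in 37 cases, with RPL26L1-AS1 the only one called. For 56 overlapping pairs the tables gave no strand for one member, and 10 of these were called, among them RNF157-AS1, GNAS-AS1 and ITGB8-AS1. Over all 240 members 13.8% were called and over all genes 11.6%, and the groups were not tested against each other. A promoter window of 300 bases was held by RefSeq for 186 of the 240 antisense lncRNAs. Its median count of CG dinucleotides was 23.5, against 29 for 139 of the sense genes and 11 for 108 genes whose symbol begins with LINC. It was 26 for the 9515 genes with a window among the 11995 fitted genes that had a RefSeq symbol.

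Other classes of noncoding gene, told apart by their symbols, had shares called on both sides of that of all genes. Among all genes 11.6% were called, 5.72% higher and 5.85% lower. Of 64 divergent transcripts (-DT) 9 were called (14.1%), 1 higher and 8 lower. Of 143 LINC genes, 10 were called (6.99%), 5 in each direction. Of 4 overlapping transcripts (-OT) 1 was called, and among 8 intronic transcripts (-IT) limma called 0, with 1 at an unadjusted p under 0.05. The single gene ending in -AS without a number was not called.

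Detection itself differed between the conditions. Of the 240 antisense lncRNAs, 36 were detected on every sictrl array but on fewer than 4 siUCA1 arrays, and 8 the other way round, while among all genes these numbers were 1014 and 308. On siUCA1 A2 the lowest signal well above background was the highest of the 8 arrays, at -2.11 against -3.32 to -2.69 on the others, and its part in this difference was not tested. These 44 members met the rule only through the condition where they were detected, which fixes the direction of a difference large enough to be called. Of the 36, limma called 6, all lower, and of the 8 it called 0, with 2 at an unadjusted p under 0.05. Nothing is read from these counts, and among all genes detected in the same 2 ways the calls were 114 of 1014, all lower, and 42 of 308, all higher. IQCH-AS1, chosen for mention after its value was seen, had the largest difference of the 8, at 1.14 on the log2 scale, with overlapping conditions. The 44 that met the rule through 1 condition had a median level of -1.94 in that condition, and 23 antisense symbols that missed it by 1 array had a median of -2.51.

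The spread between arrays of a condition was larger for the antisense lncRNAs than for their sense genes, with a median pooled SD of 0.24 on the log2 scale against 0.20, and 0.22 for all genes. The antisense lncRNAs were also dimmer, with a median level of -0.32 against 2.39 for the sense genes and 1.52 for all genes. Of the 240 members 44 were not detected on every array, against 4 of the 159 sense genes. The part of signal level in the spread was not tested. Of the 240 members 178 had 1 probe that met the rule and 62 had more than 1, and in 18 of the 62 the probes differed in sign.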

How the data were processed

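The samples were 4 sictrl and 4 siUCA1 transfections of OAW42-R cells, each on 1 Agilent array, and conditions and replicate names were taken from the labels. The authors deposited the Agilent Feature Extraction 10.7.3.1 output of every array. Its processed signal is a linear intensity with the background subtracted and not scaled between arrays. The deposited intensity table of the whole series held the same values (largest relative difference 0) and was not used further. Precision is set by how few arrays there are and, where probes are dim, by the background.

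Each intensity was taken as log2, less the 75th percentile over the 60901 non-control spots of its array. Outlier spots were left out and spots of a probe averaged, which gave 58201 probes. Probes were kept when either condition had them well above background throughout its 4 arrays (19046), and the brightest kept probe stood for a gene. Accessions were matched to RefSeq symbols (GRCh38.p14), which named 11995 of the 15455 genes. The model was fitted over all genes with limma 3.58.1 (lmFit, eBayes, Benjamini-Hochberg) in R 4.3.3 (package data.table, version 1.17.8) and was tested on simulated data. Figures were drawn with matplotlib 3.10.9 in Python 3.11.15. Where every array of a condition had a probe near background, only a bound is given there, computed against the detection limit of each array.

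Members and gene lists were chosen with earlier results of these data known. Genes named in the text are AQP5-AS1 and RNF157-AS1, the 8 largest rises and 8 largest falls called among antisense lncRNAs with their sense genes, the 5 largest rises and 5 largest falls called among sense genes, pairs with both members called, and a list of antisense lncRNAs studied elsewhere. The partner of a named gene is given beside it, and others are marked as chosen after their values were seen. Lists of -AS, -DT, -IT, -OT and LINC symbols and of cell type markers were counted only. Alternatives were quantile and median scaling, the percentile over probes detected on all 8 arrays, normexp with an offset of 50, no detection filter, detection on all 8 arrays, raising of dim values to the limit of detection, the mean of a gene's probes, the replicate name as a block, eBayes with trend and robust settings, outlier spots kept, and each array left out in turn.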

Additional observations from a re-analysis of the deposited data

Results flagged for a closer look

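For 100 sets of 4 arrays, 1 condition of a named gene each, the highest or lowest array was compared with the others by Dixon's ratio, and 12 sets were above its critical value for 4 samples, where chance gives about 1 in 20. Among antisense lncRNAs, GNAS-AS1 was at -0.39 on siUCA1 A1 against -1.03 to -1.01 on the other siUCA1 arrays, and ZNF674-AS1 was at -1.06 on sictrl A3 against 0.47 to 0.68. HOXC-AS1 was at -2.17 on siUCA1 A3 against -1.62 to -1.56, HOXC-AS3 was at -0.32 on sictrl M2 against -1.32 to -1.15, and GAS6-AS1 was at -0.60 on sictrl A3 against 0.10 to 0.23. Among sense genes, ITGB8 was at -0.21 on siUCA1 A1 against 1.53 to 1.66, VLDLR at 5.19 on siUCA1 A1 against 4.40 to 4.50, and CIRBP at 4.95 on siUCA1 M2 against 5.22 to 5.24. ZNF213 was at 0.40 on sictrl A3 against -0.38 to -0.33, and RPL26L1 was at 6.44 on sictrl A3 against 6.19 to 6.22. DLGAP1 was at -2.38 on sictrl M2 against -1.95 to -1.92, and EPB41L4A was at 5.08 on sictrl A1 against 5.25 to 5.28. Of the 12 arrays, 4 were sictrl A3 and 3 were siUCA1 A1, the 2 arrays on which the antisense lncRNAs lay furthest from their condition.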

How the results depend on the processing

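As reported, 33 antisense lncRNAs and 23 sense genes were called. Median scaling called 16 and 8 (beside 3.46% of all genes), normexp 7 and 5 (2.46%), and a fit without the detection filter, which tested 47753 genes, 4 and 1 (0.159%). Leaving out 1 array gave 17 to 38 antisense lncRNAs and 9 to 34 sense genes. With sictrl A3 and siUCA1 A1 left out together, an alternative chosen after seeing the data, 57 and 52 were called, and 31 of the 33 and all 23 were among them. The share of calls that were higher was 27.3% for antisense lncRNAs and 73.9% for sense genes, and it was 14.3% and 100% under normexp, 6.25% and 62.5% under median scaling, 0% and 100% without the filter, and 38.6% and 63.5% without both arrays. The causes were not tested. AQP5-AS1 was not among the 4 called without the filter. With the replicate name as a block, 34 antisense lncRNAs (41.2% higher, 25 shared with the 33) and 24 sense genes (62.5% higher, 18 shared) were called, and among the genes named by the rule the block ended the calls of ZNF674-AS1 (limma adjusted p = 0.0604) and PCBP1-AS1 (0.0662) and gave one to SHANK2 (0.0425). The deviations of arrays with the same name correlated at 0.04 for A1, 0.28 for M2, 0.22 for A2 and 0.13 for A3, so the names were not taken to pair the samples. The methods speak of independent experiments without tying a name to one, so shared experiments behind the names cannot be told from these sources. Under the other alternatives (quantile, percentile over detected probes, detection on all 8 arrays, dim values raised, mean of probes, trend and robust, outlier spots kept) both counts stayed within 1.5 times those reported. Among the 50 genes whose log2 values were recomputed, 7 of which could not enter the fit of genes detected on all 8 arrays, 5 changed sign, and these were not called. The log2 difference of ZNF213 ranged from -0.15 to 0.16 with 1 array left out and was 0.042 without both arrays, and that of RPL26L1 ranged from -0.10 to 0.12 and was 0.18. HOXA-AS2 ranged from -0.38 to 0.090 with 1 array left out, HOXC-AS3 from -0.40 to 0.20, with 0.020 under normexp and 0.095 without both arrays, and TTN-AS1 from -0.14 to 0.081, with 0.016 under quantile normalization, 0.027 under normexp and 0.013 for the mean of probes. Values near the background of an array carry bounds or wider spread, and 44 of the 240 antisense lncRNAs were not well above background on at least 1 array.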
